A study of Mus musculus with 8 samples.

Results

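Slits are large secreted proteins that bind Roundabout (Robo) receptors on the surface of neurons and other migrating cells, and srGAPs (Slit-Robo GTPase-activating proteins) bind the cytoplasmic tail of Robo receptors. The rows of 9 genes were taken by symbol from a table of 24155 genes: the ligands Slit1, Slit2 and Slit3, the receptors Robo1, Robo2 and Robo3, and the effectors Srgap1, Srgap2 and Srgap3. All 9 were present, and 8 passed the filter on low counts; Robo3 did not.

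Slit binding to Robo classically repels growing axons and migrating cells, as at the ventral midline of the spinal cord. The receptor signals to the actin cytoskeleton through adaptors and other proteins recruited to its tail, and heparan sulfate chains on the cell surface act as cofactors of the binding. Cells of the oligodendrocyte lineage migrate long distances during development, and Slit and Robo genes have been studied among their guidance cues.

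The cells were primary mouse oligodendrocyte progenitors, the glial cells from which myelinating oligodendrocytes form. Pups of both sexes at postnatal day 7 supplied them, all homozygous for floxed alleles of Ehmt1 and Ehmt2 (Ehmt1fl/fl;Ehmt2fl/fl), and immunopanning, capture on antibody-coated dishes, was used for isolation. Cultures were kept in SATO medium, to which bFGF (20 ng/mL) and PDGF-AA (10 ng/mL) were added. The control group (4 libraries) received the adenovirus Ad-RFP, which carries a red fluorescent protein, and the cKO group (4 libraries) received Ad-RFP-iCre, which also carries Cre recombinase. Exposure to either virus lasted 6 hours at an MOI (infectious units per cell) of 10, and cells were harvested 72 hours post infection, so both groups carry the floxed alleles, virus and RFP. Ehmt1 and Ehmt2 encode the histone H3 lysine 9 methyltransferases GLP and G9a. The labels give neither the promoter that drives Cre nor whether different cultures came from different animals. P-values of fits with the batch as a block therefore measure how the difference of cKO from control varies between batches. Those of fits on group alone measure the spread between libraries of a group. Either spread may be technical.

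Each library is named here by its group and by the batch number in its label (1, 3, 4 or 6), and each batch holds 1 control and 1 cKO library. Batch 3 is written Batch-3-2 in the descriptions and rep3 in the titles, and the labels do not explain the added number. Totals ran from 43542742 to 65374488 estimated counts. Ehmt1 fell from 95.5 ± 5.58 to 41.5 ± 3.98 CPM (counts over the TMM-scaled library size, in the usual CPM unit; SD, n = 4 per group), and Ehmt2 fell from 177 ± 17.1 to 58.4 ± 5.86 CPM (SD, n = 4 per group), with edgeR adjusted p-values of 7.41e-08 and 2.16e-09. Of 8 progenitor markers none was below 1 CPM throughout. Their summed level was 8475 to 13023 CPM in control and 7764 to 11628 CPM in cKO libraries, lower in cKO in all 4 batches. Of the 8, 2 fell in the edgeR test described below (Pdgfra, log2 fold change -0.31, and Ptprz1, -0.11) and 6 did not pass. Among those 6, Cspg4, Sox10 and Gpr17 were higher in cKO in 2 batches and lower in 2. The sum of 8 mature oligodendrocyte markers was 237 to 1614 CPM in control and 291 to 2591 CPM in cKO libraries, and that of 9 neuronal markers was 153 to 311 and 214 to 357 CPM, both higher in cKO in all 4 batches; Opalin and Gad2 stayed under 1 CPM and Slc17a6 had no row. The sum of 8 astrocyte markers was 1208 to 2827 CPM in control and 1124 to 2641 CPM in cKO libraries, lower in cKO in all 4 batches, with Gjb6 under 1 CPM throughout. Its members did not move together: of 7 tested, 2 rose (Gfap, log2 fold change 0.86, and Aqp4, 0.62), 2 fell (Slc1a3, -0.28, and Sox9, -0.31) and 3 did not pass the edgeR test described below. Summed markers of microglia, endothelium and fibroblasts or mural cells were at most 1.45, 5.25 and 3.98 CPM, and Cx3cr1, C1qa, Tmem119, Aif1, Cldn5, Cdh5 and Dcn had no row. The neuronal markers did not move as 1 set either. Of 8 tested, 5 rose and 3 did not pass: Rbfox3 (log2 fold change -0.40), Tubb3 (-0.003) and Gad1 (0.66). Rbfox3 was lower in cKO in all 4 batches. The most abundant neuronal marker was Dcx, which rose from a mean of 167 to 201 CPM. The part of these marker shifts in the results below was not tested. In bulk RNA fewer cells of a type and less RNA per cell cannot be told apart.

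Of the 8 members tested, Slit2 and Srgap1 rose in cKO, Srgap3 fell, and 5 did not pass (edgeR quasi-likelihood test with the batch as a block, Benjamini-Hochberg adjusted p under 0.05 over 18102 genes). Among all genes tested, 20.5% passed, 10.0% higher and 10.4% lower in cKO. The median log2 fold change of the 8 was -0.01, as it was over all genes, and the median absolute log2 fold change was 0.13 against 0.12 over all genes. None of the 8 had control and cKO libraries that did not overlap in CPM, against 3.67% of all genes. With group alone in the edgeR model, 0 of the 8 passed (1 had an unadjusted p under 0.05).

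The promoters of the 3 members that passed are shown so that the genes that moved can be compared. They are RefSeq sequences (GRCm38.p6) running from 250 bases before to 50 bases after the gene start, read 5′ to 3′ on the gene's strand. Capitals mark 2 motifs, searched on both strands. One is the TATA box core (TATAAA), which overlaps no match of the other. The second is the GC box core (GGGCGG), which on the opposite strand appears as its reverse complement (CCGCCC). Slit2 lies at chr5:47982905-47983204 on the plus strand, Srgap1 at chr10:122047266-122047565 and Srgap3 at chr6:112947217-112947516, both on the minus strand.
Slit2: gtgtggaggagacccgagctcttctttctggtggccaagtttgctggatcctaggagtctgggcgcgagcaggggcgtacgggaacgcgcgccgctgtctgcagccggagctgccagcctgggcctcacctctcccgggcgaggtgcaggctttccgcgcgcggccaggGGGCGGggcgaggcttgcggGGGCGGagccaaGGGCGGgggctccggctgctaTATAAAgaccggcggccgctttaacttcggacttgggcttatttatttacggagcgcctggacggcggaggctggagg
Srgap1: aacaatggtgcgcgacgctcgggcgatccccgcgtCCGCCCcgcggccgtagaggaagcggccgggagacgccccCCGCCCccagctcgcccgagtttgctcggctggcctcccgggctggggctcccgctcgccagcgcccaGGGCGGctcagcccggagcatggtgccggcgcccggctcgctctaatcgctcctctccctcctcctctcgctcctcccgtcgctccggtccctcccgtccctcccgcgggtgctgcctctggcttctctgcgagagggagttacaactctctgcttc
Srgap3: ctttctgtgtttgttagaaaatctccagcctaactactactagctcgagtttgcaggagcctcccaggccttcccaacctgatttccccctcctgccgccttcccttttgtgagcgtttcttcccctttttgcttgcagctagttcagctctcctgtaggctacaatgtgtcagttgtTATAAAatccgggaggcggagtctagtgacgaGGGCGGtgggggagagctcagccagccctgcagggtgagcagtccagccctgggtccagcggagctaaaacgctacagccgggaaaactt

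The Slit2 promoter held TATAAA starting 28 bases before the gene start and 3 copies of GGGCGG at 81, 61 and 49 bases before it. The Srgap3 promoter held TATAAA at 72 and GGGCGG at 40 bases before the start. The Srgap1 promoter held no TATAAA and 3 GC boxes, of which 2 were on the other strand. Over 32841 mouse promoters in the same RefSeq table, 13.62% held TATAAA and 35.67% held GGGCGG on either strand. Base composition also differed between them. Slit2 had 68.0% G and C with 30 CpG dinucleotides, Srgap1 73.3% with 37, and Srgap3 54.7% with 10, against medians of 52.67% and 7. Slit3, which did not pass, had more than any of these, at 78.3% with 41. Robo3 had 63.3% with 17, Srgap2 57.7% with 17 and Robo1 57.0% with 15. Of the 9 members 8 matched an entry; Slit1 did not. Robo2 matched 3 entries, with 45% to 65% G and C, of which only chr16:74411776-74412075 lies at the start of the gene span given below. The Robo1 entry (chr16:72662899-72663198) lies inside the gene span given below and not at its start. Among members other than the 3 shown, no TATAAA was found. GC boxes were found in Slit3 (6), Robo3 (3) and Srgap2 (2) but not in the entries of Robo1 and Robo2. These are matches of letters and not measured binding sites.

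Slit2 and Slit3 also share a feature within their introns: each contains a gene for miR-218, a microRNA known to target Robo mRNAs. Mir218-1 lies at chr5:48223942-48224051 in an intron of 4 coding transcripts of Slit2, and Mir218-2 lies at chr11:35616816-35616925 in an intron of the 1 coding transcript of Slit3 (RefSeq, GRCm38.p6, both on the plus strand). Both give the same mature strand, shown with its seed (bases 2 to 8) in capitals.
miR-218-5p: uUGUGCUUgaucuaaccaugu

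The libraries were made from polyadenylated RNA, and the level of miR-218 was not measured. A match to the seed (AAGCACA) after the stop codon of the longest coding transcript was found in Slit2 (2), Robo1 (1), Robo2 (2), Robo3 (1), Srgap2 (1) and Srgap3 (1), and not in Slit1, Slit3 or Srgap1. Such a match was present in 16.01% of 13563 tested genes, which do not include Robo3. The ends of these genes differ in length, and the share was not matched to the members for length. The ends of the members ran from 343 bases in Robo3 to 4817 in Srgap3.

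**Figure D1:**
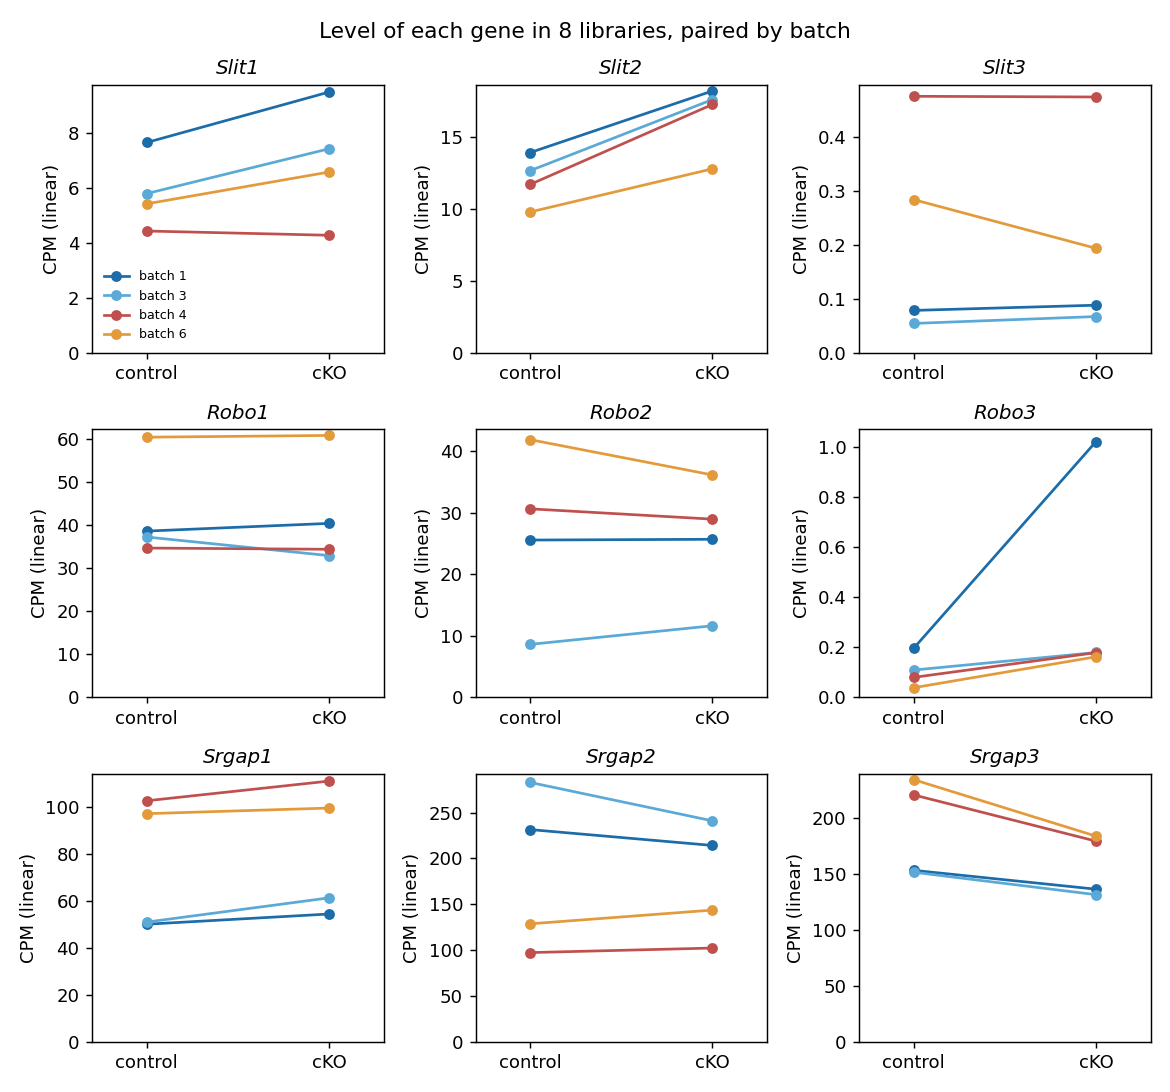
Level of each of the 9 genes in CPM on a linear axis, which differs between panels; each line joins the control and cKO library of 1 batch. Slit2 and Srgap1 are higher and Srgap3 is lower in cKO in all 4 batches, while Robo1 and Robo2 differ mainly between batches.

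Among the ligands, Slit2 was the most abundant Slit per count and the one that rose. Slit2 (chr5:47983138-48307733, plus strand, mm10, protein-coding) encodes a ligand widely used to study the repulsion of axons and migrating cells. It measured 13.9, 12.7, 11.7 and 9.79 CPM in control libraries 1, 3, 4 and 6, and 18.2, 17.6, 17.3 and 12.8 CPM in the cKO libraries of the same numbers. Every cKO library was above its batch partner, and the groups overlapped only because cKO 6 lay below control 1. The mean went from 12.02 ± 1.74 to 16.5 ± 2.48 CPM (SD, n = 4 per group), a fitted rise of 36.9% (log2 fold change 0.45 ± 0.06 SE, edgeR adjusted p = 0.000595). The difference within batches was 0.39, 0.47, 0.56 and 0.38 on the log2 scale, so its spread was small beside its size. With group alone in the edgeR model the same fold change had an adjusted p of 0.799.

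Slit1 (chr19:41600257-41743665, minus strand, protein-coding), a ligand found mostly in the nervous system, did not pass the test. Its level was 7.65, 5.79, 4.42 and 5.41 CPM in control libraries 1, 3, 4 and 6, and 9.48, 7.42, 4.27 and 6.57 CPM in the cKO libraries. It was higher in cKO in batches 1, 3 and 6 and differed by -0.05 on the log2 scale in batch 4. The fitted log2 fold change was 0.23 ± 0.09 (SE), with an edgeR adjusted p of 0.0960. Without batch 4, the batch of opposite sign, it was 0.33, with an edgeR adjusted p of 0.0485. Without batches 1, 3 and 6 it was 0.20, 0.19 and 0.22, with edgeR adjusted p-values of 0.276, 0.285 and 0.184.

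Slit3 (chr11:35121224-35708507, plus strand, protein-coding), the Slit family member best known outside the nervous system, was near the lower limit of these libraries. It had 4, 3, 30 and 15 counts in control libraries 1, 3, 4 and 6 and 5, 3, 24 and 12 counts in the cKO libraries, at most 0.476 CPM. Batches 4 and 6 held more of it than batches 1 and 3 in both groups. Its log2 fold change was -0.12 ± 0.35 (SE), edgeR adjusted p = 0.850, and a change was not detectable at this depth.

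Slit2 and Slit1 together made nearly all of the Slit mRNA. Levels of different genes were compared as CPM per kb of the longest protein-coding transcript. Slit2 was 49.3% to 67.3% of the summed Slit level across the 8 libraries and Slit1 29.2% to 48.8%, while Slit3 was at most 4.45%. In control libraries Slit2 stood at 1.21 ± 0.175 and Slit1 at 1.03 ± 0.237 CPM per kb (SD, n = 4), with ranges that overlapped although Slit2 was above Slit1 in each library. That order depends on the length used: with the union of all exons, which is 25433 bases for Slit2 when every annotated transcript is taken in, the log2 ratio of Slit2 to Slit1 went from 0.25 to -1.04. The summed Slit level was 1.99 to 2.76 CPM per kb in control and 2.48 to 3.51 in cKO libraries, higher in cKO in all 4 batches.

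Robo1 and Robo2 made nearly all of the receptor mRNA, and neither passed the test. Robo1 (chr16:72308306-73046095, plus strand, protein-coding) is a broadly expressed Slit receptor. It measured 38.5, 37.2, 34.6 and 60.3 CPM in control libraries 1, 3, 4 and 6, and 40.3, 32.9, 34.3 and 60.7 CPM in the cKO libraries. The 2 libraries of batch 6 were far above the other 6, and within batches the groups lay close together. The log2 fold change was -0.03 ± 0.04 (SE), with an edgeR adjusted p of 0.728.

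Robo2 (chr16:73891839-74411825, minus strand, protein-coding), the second main Slit receptor, measured 25.6, 8.59, 30.6 and 41.9 CPM in control libraries 1, 3, 4 and 6. The cKO libraries measured 25.7, 11.6, 29.0 and 36.2 CPM. Batch 3 was lowest in both groups and batch 6 highest. The differences within batches, 0.01, 0.43, -0.08 and -0.21 on the log2 scale, had no common sign, and the fitted log2 fold change was 0.00 ± 0.09 (SE; edgeR adjusted p = 0.987). Robo1 was 56.1% to 82.8% of the summed Robo level per kb and Robo2 16.8% to 43.7%. Robo1 was above Robo2 per kb in every library, at 5.64 ± 1.57 against 3.10 ± 1.61 CPM per kb in controls (SD, n = 4), where the ranges overlapped.

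Robo3 (chr9:37415669-37433246, minus strand, protein-coding), a divergent receptor that mammalian commissural axons use at the midline and that binds the ligand NELL2, had too few counts to pass the filter. It had 10, 6, 5 and 2 counts in control libraries 1, 3, 4 and 6 and 58, 8, 9 and 10 counts in the cKO libraries. In CPM these were 0.196, 0.109, 0.0793 and 0.0379 in control libraries and 1.02, 0.179, 0.178 and 0.161 in cKO libraries. Each cKO library was above its batch partner, but 3 of the 4 lay under control 1, and cKO 1 alone held most of the cKO counts. In an edgeR fit with no filter, chosen after the data were seen, its log2 fold change was 1.68 ± 0.43 (SE, adjusted p = 0.0156); without batch 1 it was 1.21 ± 0.67 (SE, adjusted p = 0.304). The neighbouring receptor gene Robo4, which does not overlap Robo3, had 3, 8, 5 and 3 counts in control and 11, 5, 6 and 2 in cKO libraries, with 2 batches higher and 2 lower.

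The srGAPs were the most abundant members, and 2 of the 3 passed the test in opposite directions. Srgap3 (chr6:112717971-112947266, minus strand, protein-coding) encodes a Rac-directed GTPase-activating protein also called WRP. It measured 153, 152, 221 and 234 CPM in control libraries 1, 3, 4 and 6, and 136, 132, 179 and 184 CPM in the cKO libraries. Each cKO library was below its batch partner, but the cKO libraries of batches 4 and 6 lay above the controls of batches 1 and 3, so the groups overlapped. The mean went from 190 ± 43.7 to 158 ± 27.7 CPM (SD, n = 4 per group), and the fitted log2 fold change was -0.26 ± 0.04 (SE; edgeR adjusted p = 0.000913), a change of -16.3%. With group alone in the edgeR model the adjusted p was 0.9999.

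Srgap1 (chr10:121780991-122047315, minus strand, protein-coding) encodes the srGAP first linked to Slit repulsion through Cdc42. It measured 50.03, 51.0, 102.6 and 97.1 CPM in control libraries 1, 3, 4 and 6, and 54.4, 61.2, 111 and 99.5 CPM in the cKO libraries. All 4 cKO libraries were above their batch partners, by 0.12, 0.27, 0.11 and 0.03 on the log2 scale, while batches 4 and 6 were far above batches 1 and 3 in both groups. The mean went from 75.2 ± 28.6 to 81.5 ± 27.9 CPM (SD, n = 4 per group), with a fitted rise of 9.50% (log2 fold change 0.13 ± 0.04 SE, edgeR adjusted p = 0.0391). This small rise was close to the threshold: the edgeR adjusted p was 0.0986, 0.152 and 0.0904 without batches 1, 3 and 4 respectively, and 0.9999 with group alone. A gene model on the same strand, Gm48804, overlaps Srgap1 at up to 2.63% of its level.

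Srgap2 (chr1:131285251-131527352, minus strand, protein-coding), whose product shapes membrane protrusions through its F-BAR domain, did not pass. Its level was 231, 283, 97.2 and 129 CPM in control libraries 1, 3, 4 and 6 and 214, 241, 102 and 144 CPM in the cKO libraries. It was lower in cKO in batches 1 and 3, by -0.11 and -0.23 on the log2 scale, and higher in batches 4 and 6, by 0.07 and 0.16; this difference between batches was not tested. The fitted log2 fold change was -0.03 ± 0.06 (SE, edgeR adjusted p = 0.786). Gene models that overlap Srgap2 and Srgap3 were at most 0.112% and 0.0822% of their levels.

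**Figure D2:**
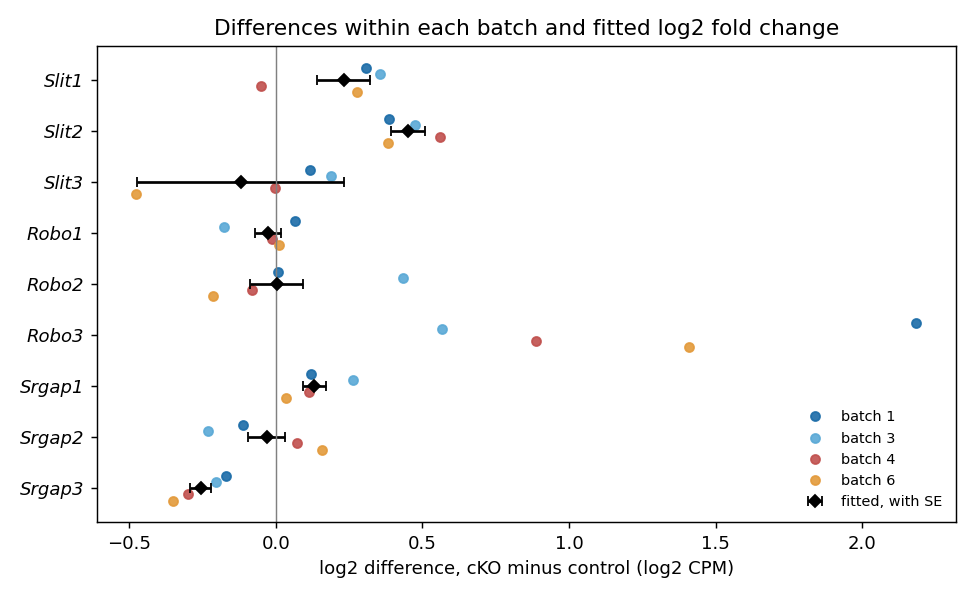
Difference of cKO from control in log2 CPM within each batch (coloured points) and the fitted log2 fold change with its standard error (black diamonds and bars); Robo3 has no fitted value because it did not pass the filter. The 4 points of Slit2 lie between 0.38 and 0.56 and those of Srgap3 between -0.35 and -0.17, while Robo2 and Srgap2 have points on both sides of 0.

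The makeup of the srGAP family differed more between batches than between groups. Srgap2 was 54.4% to 59.9% of the summed srGAP level per kb in batches 1 and 3, and 24.2% to 34.8% in batches 4 and 6. Srgap3 went the other way, at 28.1% to 32.8% in batches 1 and 3 and 40.3% to 49.5% in batches 4 and 6, and Srgap1 with it, at 11.1% to 14.9% and 22.7% to 30.2%. The summed level itself moved little, at 50.1 to 58.9 CPM per kb in control and 47.2 to 52.7 in cKO libraries, lower in cKO in all 4 batches. Mature oligodendrocyte marker sums were also higher in control libraries of batches 4 and 6 (1614 and 950 CPM) than in those of batches 1 and 3 (541 and 237 CPM). The same held for progenitor marker sums, at 12633 and 13023 CPM against 8475 and 10043 CPM, for neuronal marker sums, at 311 and 311 against 153 and 229 CPM, and for astrocyte marker sums, at 2136 and 2827 against 2085 and 1208 CPM. The part of these differences in the makeup of the family was not tested.

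**Figure D3:**
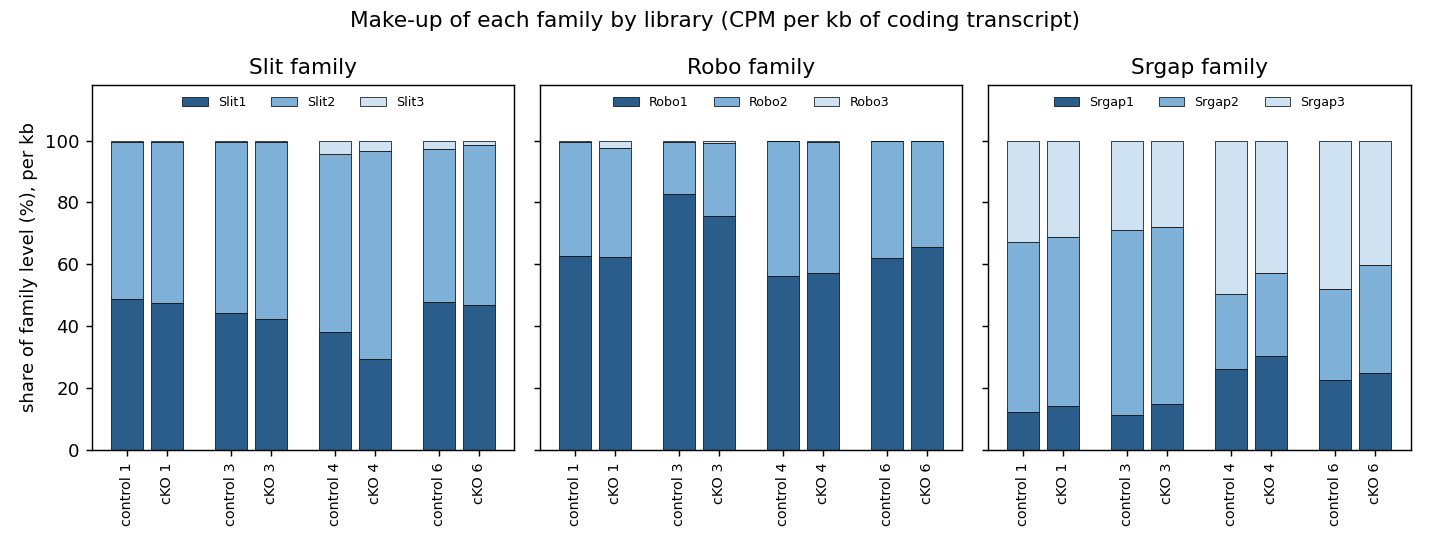
Share of each family's summed level (CPM per kb of the longest coding transcript, in percent) held by each member in each of the 8 libraries, ordered by batch. Slit3 and Robo3 are thin bands, and Srgap2 takes more than the other srGAPs in batches 1 and 3 but not in batches 4 and 6.

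Batch carried most of the variance of most members. Of the sum of squares of log2 CPM over the 8 libraries, batch accounted for 98.0% in Robo1, 97.3% in Robo2, 98.1% in Slit3, 97.2% in Srgap1, 98.1% in Srgap2 and 86.3% in Slit1, against a median of 81.1% over all genes tested. In Slit2 alone among the tested members, group accounted for more (57.1%) than batch (41.4%). For Srgap3 batch accounted for 78.7% and group for 19.7%, against a median of 6.26% from group over all genes. Between the lowest and highest batch means lay 2.40 log2 units in Slit3, 1.96 in Robo2, 1.39 in Srgap2 and 1.03 in Srgap1, but 0.51 in Slit2 and 0.56 in Srgap3, near the median of 0.55 over all genes. The share and range of Slit3 rest on 3 to 30 counts per library.

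Across the 9 members, mean levels per kb were highest for the 3 srGAPs, followed by Robo1 and Robo2, then Slit2 and Slit1, with Slit3 and Robo3 lowest. In control libraries they were 23.1 ± 10.8 for Srgap2, 21.4 ± 4.92 for Srgap3, 9.65 ± 3.67 for Srgap1, 5.64 ± 1.57 for Robo1, 3.10 ± 1.61 for Robo2, 1.21 ± 0.175 for Slit2, 1.03 ± 0.237 for Slit1, 0.0427 ± 0.0378 for Slit3 and 0.0220 ± 0.0140 for Robo3 (CPM per kb, SD, n = 4). Of neighbours in this order, only Srgap3 over Srgap1 and Slit1 over Slit3 had ranges that did not overlap. In cKO libraries the ranges of Robo1 and Robo2 did not overlap either, and Robo3 stood above Slit3 in the mean, with cKO 1 far above the other 3. Srgap2 was above Srgap3 in batches 1 and 3 only, and with exon-union lengths the mean log2 ratio of Srgap2 to Srgap3 in controls was -0.49 in place of 0.01.

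The genes whose profile over the 8 libraries was most like each tested member were sought among 11421 protein-coding genes, by the root-mean-square distance between centred log2 CPM profiles; such profiles share the batches and the depth of the libraries. Nearest to Slit2 were Cr1l (distance 0.0931), Cisd3 (0.0994) and Zfp984 (0.111). Nearest to Srgap3 were Kdm3a (0.0473), Arl8a (0.0594) and Scarb2 (0.0603), and nearest to Srgap1 were Eml6 (0.0741), Dlgap1 (0.0926) and Mroh1 (0.101). For Srgap2 they were Sppl2b (0.0637), Tanc1 (0.0908) and Xylt1 (0.120), and for Slit1 Ccdc96 (0.0960), Serpine2 (0.0964) and Kcnj16 (0.117). For Robo1 they were Stk36 (0.107), Spata1 (0.118) and Cx3cl1 (0.120). The nearest genes of Robo2 and Slit3 were farther away, with Wipi1 (0.153), Adhfe1 (0.158) and Pdpn (0.162) nearest to Robo2 and Tns3 (0.149), Epb41l2 (0.168) and Pdcd4 (0.171) nearest to Slit3. The profile of Slit3 rests on few counts per library.

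The wider pathway was described by a list of 43 genes for other ligands, receptors and coreceptors, heparan sulfate enzymes, cytoplasmic effectors and receptor turnover, of which 42 were tested. In the edgeR fit 4 rose and 11 fell, 9.52% and 26.2% of the 42, against 10.0% and 10.4% of all genes. Most of the list is well expressed, and among genes with a mean of at least 10 CPM 3 of 40 rose (7.5%) and 11 fell (27.5%), against 10.4% and 16.3% of all 10085 such genes. The median log2 fold change of the 42 was -0.08, against -0.01 over all genes. The list was chosen with earlier results of these data known and is not the whole pathway. Its shares and median therefore describe these genes only and do not test the pathway.

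All 3 other ligands of the list passed the test, 2 higher and 1 lower in cKO, where 20.5% of all genes passed. These 3 were chosen with earlier results of these data known. Nell2, a secreted ligand of Robo3, had means of 146 ± 37.5 (control) and 170 ± 38.1 CPM (cKO; SD over 4 libraries each) and rose by 0.23 ± 0.03 on the log2 scale (SE, edgeR adjusted p = 0.000993). Its relative Nell1 rose from 0.335 to 0.726 CPM, close to the lower limit (log2 fold change 1.15 ± 0.26 SE, edgeR adjusted p = 0.0119). Netrin-1 (Ntn1), the attractant whose receptor Dcc is bound by activated Robo, went from 143 ± 33.5 (control) to 83.4 ± 21.4 CPM (cKO; SD over 4 libraries each) and fell, with a log2 fold change of -0.78 ± 0.04 (SE, edgeR adjusted p = 5.50e-06), while Dcc did not pass at 0.01 ± 0.03.

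The list held 6 enzymes that build or modify heparan sulfate chains, chosen with earlier results of these data known and not the whole class. Of these 6, 4 fell, against 10.4% of all genes and 16.3% of those at 10 CPM or more. These were the sulfotransferase Hs6st2 (log2 fold change -0.29, edgeR adjusted p = 0.00965), the chain-elongating enzymes Ext1 (-0.24, 0.00216) and Ext2 (-0.10, 0.0484), and the N-deacetylase and N-sulfotransferase Ndst1 (-0.10, 0.0374), with Ext2 and Ndst1 close to the threshold. Hs2st1 and Hs6st1 did not pass, at -0.09 and -0.03. Of 9 tested receptors and coreceptors 1 rose (11.1%) and 2 fell (22.2%), against 10.0% and 10.4% of all genes. The heparan sulfate proteoglycan Sdc4 rose by 0.30 on the log2 scale (edgeR adjusted p = 0.00603). Its relative Sdc3, at 916 CPM in controls, fell by 0.22 (edgeR adjusted p = 0.000968). Flrt3, a Robo1 coreceptor, fell by 0.20 (edgeR adjusted p = 0.0119). Plxna1, another Slit receptor, did not pass at -0.09.

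Of 19 cytoplasmic effectors 1 rose (5.26%), 3 fell (15.8%) and 15 did not pass. Among all genes 10.0% rose and 10.4% fell, and among those at 10 CPM or more 10.4% and 16.3%. The GTPase Cdc42 had means of 370 ± 4.19 (control) and 413 ± 11.6 CPM (cKO; SD over 4 libraries each), a rise of 0.16 on the log2 scale (edgeR adjusted p = 0.00364). The actin regulators Enah and Evl fell, by 0.19 and 0.14 on the log2 scale, as did the kinase Abl1, by 0.15 (edgeR adjusted p-values 0.00385, 0.0189 and 0.0143). Rac1 did not pass, at -0.09. Of 5 genes for receptor turnover only the ubiquitin ligase Nedd4 passed, 20% of them against 20.5% of all genes. Nedd4 fell by 0.18 on the log2 scale (edgeR adjusted p = 0.00182), while Usp33, a deubiquitinase that acts on Robo1, was at -0.05. Each of the 15 pathway genes that passed kept its sign in all 4 batches. The test with the batch as a block favours genes whose difference agrees between batches, so this is not separate evidence. With group alone in the edgeR model none of the 15 passed.

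**Figure D4:**
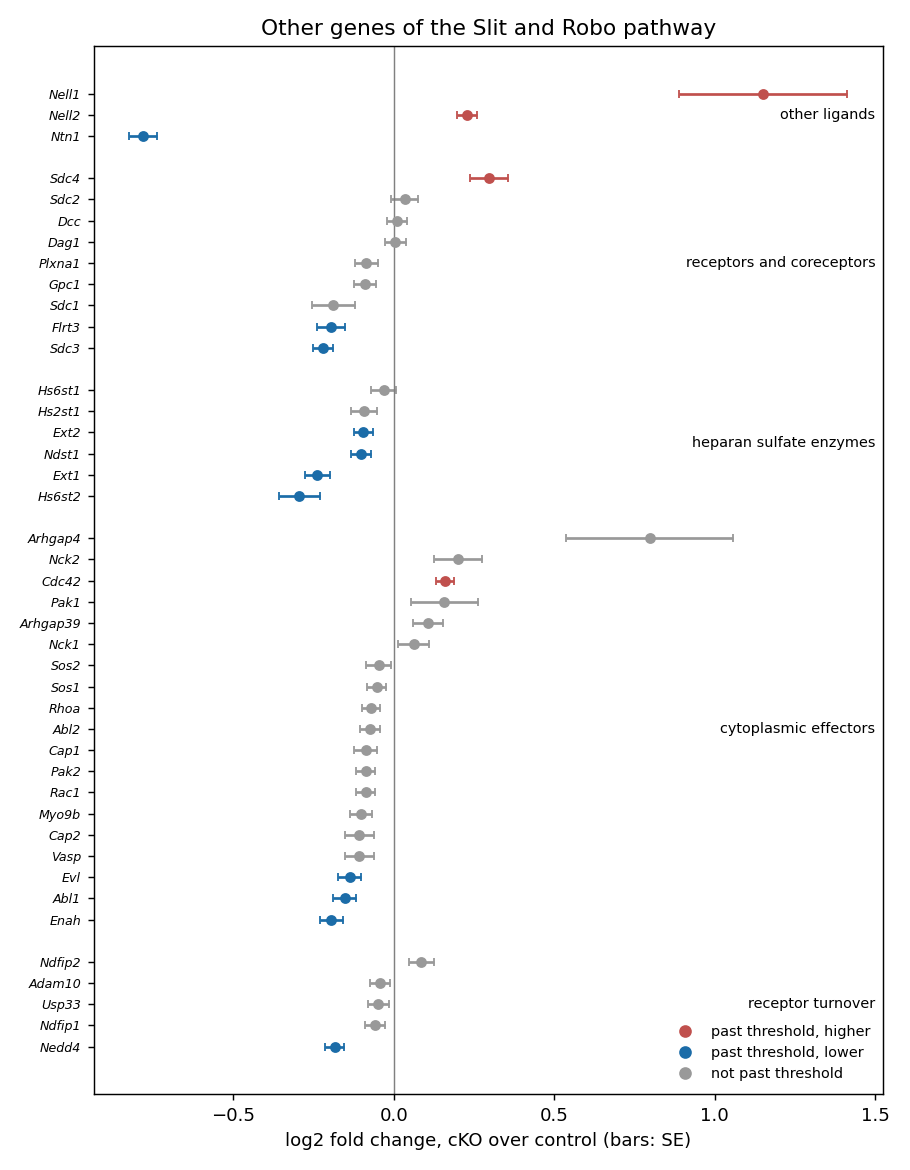
Fitted log2 fold change of cKO over control with its standard error for the 42 tested genes of the wider pathway, grouped by role; red and blue points are past the threshold, grey points are not. Nell1 at 1.15 is the farthest from 0; Arhgap4 at 0.80, which is grey, and Ntn1 at -0.78, which is blue, come next, and 4 of the 6 heparan sulfate enzymes are blue.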

How the data were processed

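Per the labels' protocols, RNA of cultured progenitors with a RIN of 8 or more was captured on oligo-dT beads and made into mRNA libraries. The tools were STAR, cutadapt, Partek and DESeq2 with the mm10 build, per the submitters' processing notes. Versions, annotation and strand use in counting are not stated in these sources. Values as deposited by the authors are estimated counts without normalization, so genes that overlap can exchange counts.

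Estimated counts were rounded. Genes were kept by edgeR's filterByExpr (minimum count 10), which removed 6053 of 24155. Libraries were scaled by TMM, and cKO was compared with control by the 2-sided quasi-likelihood test (robust glmQLFit, glmQLFTest) with the batch number as a block (R 4.3.3, edgeR 4.0.16). P-values were adjusted by Benjamini-Hochberg over all genes tested, with a threshold of 0.05. Standard errors came from the fold change and its F statistic, and a prior count of 2 entered log2 CPM. The labels pair the libraries by batch; deviations from group means correlated at 0.787, 0.792, 0.762 and 0.751 within numbers 1, 3, 4 and 6, and at most at 0.394 between numbers. No 2 libraries of a group were duplicates. Gene lengths, transcripts and introns came from GENCODE vM21 and matched 23209 genes of the table (96.1%).

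The members, lists and block were chosen with earlier results of these data known. Named were the 9 members, Ehmt1, Ehmt2, every pathway gene past the threshold, and the 3 genes nearest each tested member (protein-coding, at least 2 CPM, no model name). Other pathway genes and the marker genes were chosen as examples once values were known. Alternatives were no block, other scaling and filters, DESeq2 1.42.0, limma-voom (limma 3.58.1), each batch left out, and 2 chosen after seeing the data: no filter for Robo3 and exon-union lengths.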

Additional observations from a re-analysis of the deposited data

Results flagged for a closer look

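Robo1 in control 6 was 60.3 CPM, with the next control library at 38.5 CPM, a gap that stands out in a group of 4; the cKO library of the same batch was at 60.7 CPM. Robo3 in cKO 1 was 1.02 CPM, with the next cKO library at 0.179 CPM; Robo3 was highest in batch 1 among the controls too, at 0.196 CPM. Among 18 groups of 4 libraries looked at, chance gives such a flag in about 1 in 20.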

How the results depend on the processing

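With other scaling (RLE or upper-quartile factors), no filter or a filter of 1 CPM in 4 libraries, all with the replicate block, the 8 tested members kept their calls, except that Slit3 did not pass the last filter and was not tested there, and the median of all genes moved by under 0.1 on the log2 scale. With no replicate block, edgeR called 0 members (1 at an unadjusted p under 0.05), 3 genes in all (893 unadjusted) and 0 pathway genes, against 3, 3706 and 15 with it; the log2 fold change was 0.45 for Slit2, 0.12 for Srgap1 and -0.27 for Srgap3. DESeq2 with no replicate block called 0 members (1 unadjusted), 191 genes and 1 pathway gene, with 0.45 for Slit2, 0.11 for Srgap1 and -0.27 for Srgap3. Srgap1 also lost its call with the block in DESeq2 (0.13, adjusted p = 0.0786) and limma-voom (0.12, adjusted p = 0.0526). Leaving out each batch in turn, which leaves fewer libraries, gave 2 to 4 members, 2102 to 3432 genes (the lowest without batch 3) and 9 to 18 pathway genes (9 without batch 3). The log2 fold change of Slit2 ran from 0.43 to 0.48 and that of Srgap3 from -0.28 to -0.23, always past the threshold. Srgap1 ran from 0.092 to 0.16 and lost its call without batches 1, 3 or 4, and Slit1 ran from 0.19 to 0.33 and passed without batch 4. Robo3 with no filter ran from 1.21 to 1.97, lost its call without batch 1, and with no replicate block was at 1.88 (adjusted p = 0.893). With exon-union lengths the control log2 ratio of Slit2 to Slit1 was -1.04 and that of Srgap2 to Srgap3 was -0.49. Slit3 and Robo3 had 58 counts or fewer per library. Causes were not tested.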
